A study of Mus musculus with 335 samples.

Results

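Mvt1 is a mouse mammary tumour cell line of the FVB strain whose labelled oncogenic drivers are cMYC and VEGF. The comparison set 6 primary tumours, grown in FVB mice after orthotopic injection of Mvt1 cells (an allograft into the mammary gland), against 3 samples of the same cells kept in tissue culture. These 9 samples were chosen by their titles from the 335 of the series, which holds RNA-seq of mouse mammary tumour models, their metastases and cultured cells. No agent or engineered allele is labelled for either group. To see whether a tumour-culture difference also held in other lines, the same contrast was made for 6DT1 (FVB, driver cMYC, 6 tumours and 3 cultures) and Met1 (FVB, driver PyMT, 7 tumours and 3 cultures), both also grown as orthotopic allografts. One 6DT1 culture carries the strain label BALB, and 1 Met1 tumour is titled a lung metastasis while its source is the primary tumour. The labels do not say whether the cultures were grown separately, so p-values measure only the spread between these samples, which may be technical in the cultures.

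A cell line moved from a dish into the mammary gland leaves a flat plastic surface and a culture medium, which the labels do not describe for any of the lines, and meets blood vessels, fibroblasts and immune cells of the host. Serum and adhesion to plastic are classical inducers of the immediate early genes, which encode transcription factors made within minutes of growth factor signalling, and of the genes driven by YAP and TEAD, which respond to cell spreading. Interferons from host cells induce antiviral genes and the MHC class I machinery that presents peptides to T cells. RNA of a whole tumour mixes malignant and host cells, and in such bulk samples fewer cells of a type and less RNA per cell cannot be told apart.

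Levels are the authors' RPKM, read counts scaled by transcript length and library depth. By the smallest steps between the deposited values, 20297184 to 27542823 reads were counted in the Mvt1 tumours, and 23496960, 24967040 and 28145227 in the cultures, so 1 read in a gene of 1 kb is worth 0.0355 to 0.0493 RPKM in these 9 libraries. A difference is the mean of the tumours minus that of the cultures on the log2(RPKM + 1) scale, which understates the change of genes near or below 1 RPKM. It was tested with limma over every gene at 1 RPKM or more in at least 3 libraries, with Benjamini-Hochberg adjustment, and a gene is said to be higher, lower, risen or fallen where its adjusted p was under 0.05. The genes were grouped in 42 lists, 29 of tumour-cell pathways and 13 of host cell types.

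The library labelled mouse 5 of the Mvt1 tumours went against its label. Over 12352 genes its values correlated at 0.990 with the mean of the 4T1 tumours of the series (a BALB line) and at 0.908 with the mean of the other Mvt1 tumours, whereas each of the other 5 Mvt1 tumours lay nearest its own group, at 0.966 to 0.991. Myc, a labelled driver, stood at 35.7 RPKM in it, against 354 to 412 RPKM in the other 5 tumours and 346, 344 and 465 RPKM in the cultures. Mtap, a methionine salvage enzyme chosen here after its values were seen, stood at 195 RPKM in it, at 1.45 to 2.08 RPKM in the other 5 Mvt1 tumours, at 142 to 195 RPKM in the 4T1 tumours and at 0.0249, 0.0587 and 0.0937 RPKM in the Mvt1 cultures. The epithelial adhesion gene Epcam was at 67.3 RPKM in it and at 0.376 to 1.70 RPKM in the other 5. The library was kept under its label, and results are given with and without it. Other single tumours also stood out for some genes. The tumour of mouse 1 had 127 RPKM of the milk protein gene Csn2 and 16.7 RPKM of the fat cell hormone gene Adipoq, and that of mouse 2 the highest Fos. Among the lines compared, the Met1 tumour of mouse 1 also stood apart, at 0.805 with its own group and 0.873 with Met1 spleen metastases, its nearest group. It held 79.9 RPKM of Adipoq and 78.7 RPKM of Ptprc, a leukocyte gene, against 2.68 to 4.78 RPKM of Ptprc in the other Met1 tumours. The counts of all genes against Met1, the amino acid stress list and the largest differences between lines are also given without it. Other results against Met1 keep it. The 6DT1 tumour numbered 0 was the least like its group, at 0.95, and held 39.5 RPKM of Ptprc, against 8.21 to 12.3 RPKM in the other 5. The 6DT1 tumour numbered 5 lay at 0.98 with the Mvt1 tumours and at 0.978 with its own group.

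**Figure D1:**
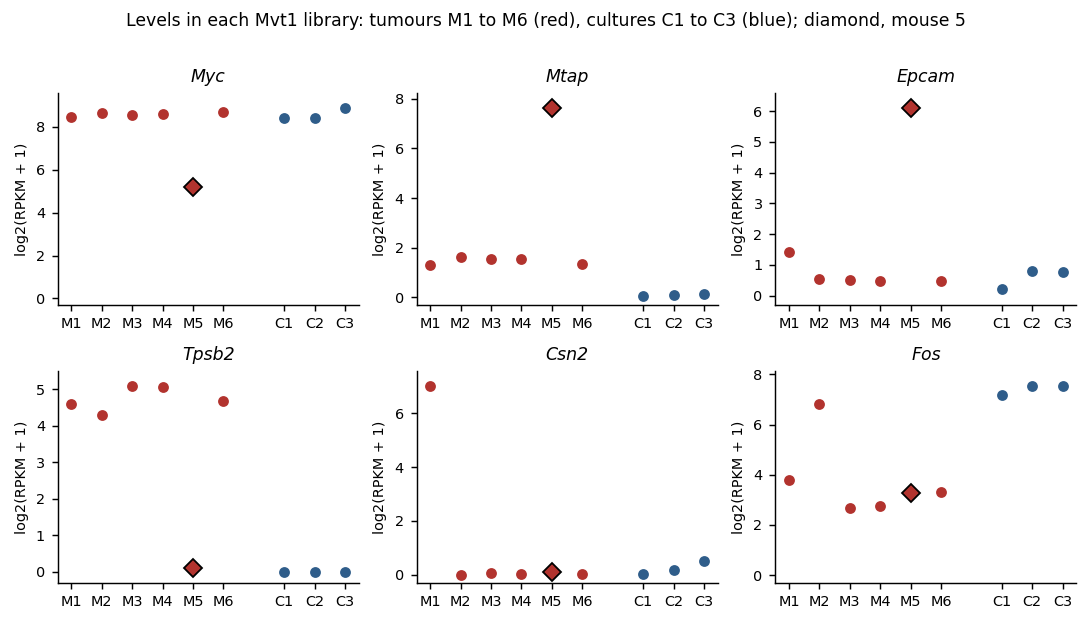
Levels of 6 genes that tell the libraries apart, as log2(RPKM + 1), in the 6 Mvt1 tumours (M1 to M6, red, the library labelled mouse 5 as a diamond) and the 3 cultures (C1 to C3, blue), one point a library. The library labelled mouse 5 has 35.7 RPKM of Myc and 195 RPKM of Mtap, the tumour of mouse 1 has 127 RPKM of Csn2, and the tumour of mouse 2 has 111 RPKM of Fos.

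Of 11131 genes tested, 2062 (18.5%) were higher and 1730 (15.5%) lower in the tumours than in the cultures, with a median difference of -0.0049 over all genes. A difference of at least 1 was reached by 1073 of the higher genes and by 275 of the lower ones. Without the library labelled mouse 5, 11038 genes were tested, of which 2713 (24.6%) were higher and 2642 (23.9%) lower. The 2 fits shared 3757 calls, and none of these had opposite signs. Of 192 genes taken from the lists and from the largest differences by a fixed rule, 156 were called in both fits with the same sign and a shift of at most 0.776, 2 (Cyp51 and Hspa1a) only with 6 tumours and 10 only with 5, so a gene given 1 difference below kept its call unless another value is printed. With quantile normalization in place of the deposited scale the median of all genes moved to -0.108 and the split to 1509 higher and 2465 lower. Among the 6871 tested genes at 5 RPKM or more in each culture, which the cultured cells themselves express, 748 (10.9%) were higher and 1373 (20%) lower, and 1189 (17.3%) and 2032 (29.6%) without the library labelled mouse 5. Leaving out culture 2 gave 2333 calls in all and leaving out culture 3 gave 2244, against 3792 with all libraries.

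**Figure D2:**
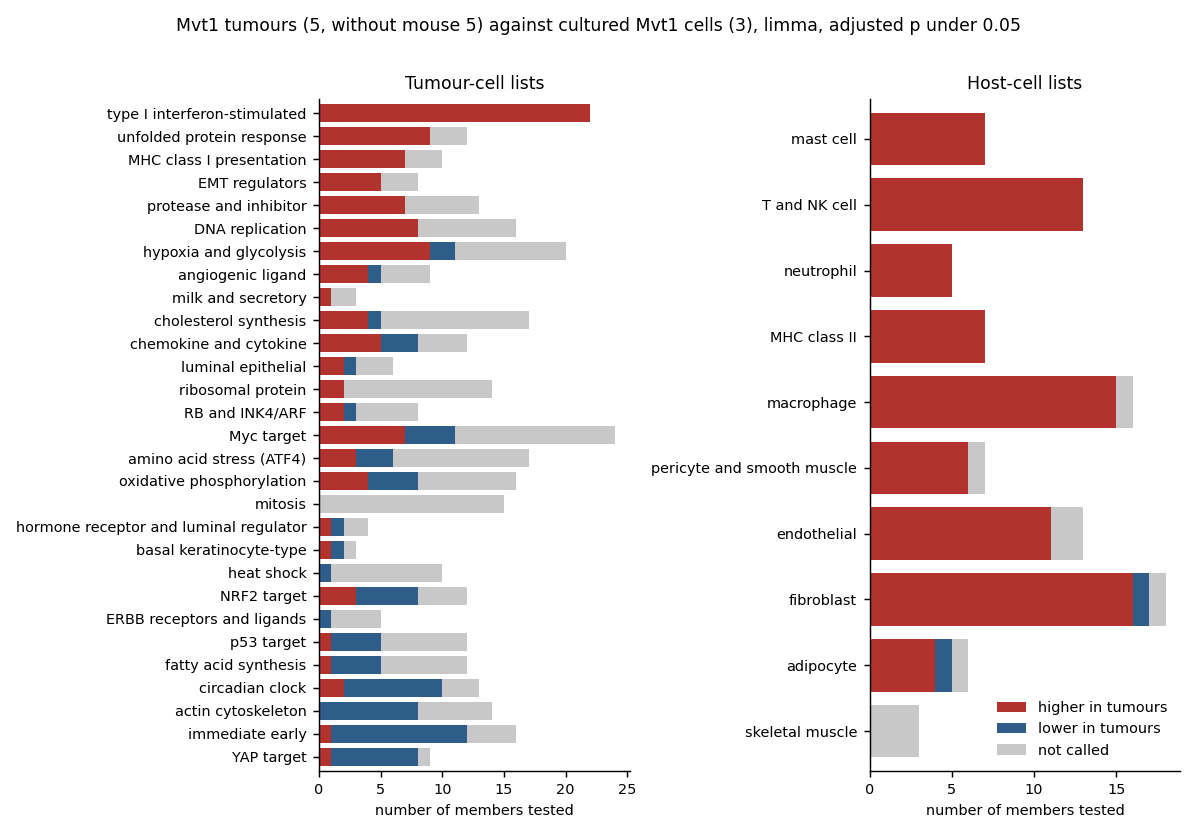
Number of genes higher (red), lower (blue) and not called (grey) in Mvt1 tumours against cultured Mvt1 cells for each list with at least 3 members tested, without the library labelled mouse 5. Tumour-cell lists are on the left and host lists on the right. All 22 interferon-stimulated genes were higher, 11 of 16 immediate early genes lower, and most host lists nearly all higher, with most of their members under 1 RPKM in every culture.

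Host cell genes set the largest differences. The 12 largest rises among genes averaging at least 5 RPKM in the tumours were led by genes known from myeloid cells. Lyz2, the macrophage and granulocyte lysozyme, was between 449 and 1338 RPKM in the tumours (median 979), against 0.113, 0.983 and 0.472 RPKM in the cultures. Every tumour was far above every culture, where the gene was near nothing. Its difference was 9.22 ± 0.31 (SE, adjusted p = 1.16e-07), and 9.10 without the library labelled mouse 5. The others were Cd74, the invariant chain of MHC class II, the complement genes C1qa, C1qb and C1qc, the protease gene Ctss, the lipid carrier Apoe, the signalling adaptor Tyrobp, the lysosomal Laptm5, the chemokine Ccl6, and the granzymes Gzmf and Gzmg, with differences between 6.39 and 8.05. Ptprc, the common leukocyte gene CD45, stood at 5.35 to 14.7 RPKM in the tumours (median 9.85) and 0.00446, 0 and 0.00372 RPKM in the cultures. All tumours held it and the cultures were at or next to 0.

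Most genes of the host lists passed the filter only through the tumours. Of all 1061 tested genes under 1 RPKM in every culture, 82.7% were higher and none lower, and 93% of 995 without the library labelled mouse 5, so the calls of such members were largely set by the filter and are not read as a result. The same limit holds for the adjusted p of any single gene under 1 RPKM in every culture. Such genes include Lyz2, Postn, Ifit3, Ifit1, Zbp1, Nlrc5, Axl, Adm, Ccl7, Cxcl2 and Angpt2. Under 1 RPKM in every culture were all 7 MHC class II genes tested, all 14 of T and NK cells, 13 of 16 of macrophages, 12 of 18 of fibroblasts, 9 of 13 of endothelium, 6 of 7 of mast cells, 5 of 6 of neutrophils and 3 of 7 of pericytes and smooth muscle. Of the members that some culture held at 1 RPKM or more, 4 of 6 fibroblast genes were higher and 1 lower, with 3 of 4 pericyte and smooth muscle, 2 of 4 endothelial and 2 of 3 macrophage genes higher, against 18.5% of all genes. Without the library labelled mouse 5 these counts were the same, against 24.6% of all genes. Postn, a matrix protein of activated fibroblasts, was between 42.1 and 123 RPKM in the tumours (median 83.1), against 0.143, 0.432 and 0.226 RPKM in the cultures. Its difference was 5.97 ± 0.31 (SE, adjusted p = 1.62e-06), and 5.90 without the library labelled mouse 5. Pecam1, an endothelial adhesion gene, was between 8.57 and 17.3 RPKM in the tumours (median 10.6), against 0.0390, 0.0514 and 0.0586 RPKM in the cultures. Both genes were high in every tumour and near nothing in every culture. Summed over a list, macrophage genes came to 1146 to 2526 RPKM in the tumours (at most 2306 RPKM without the library labelled mouse 5) and 8.91 to 18.0 RPKM in the cultures. T and NK cell genes came to 42.6 to 66.8 RPKM in the tumours and 0.251 to 0.389 RPKM in the cultures. Fibroblast genes summed to 312 to 894 RPKM in the tumours and to 139 to 177 RPKM in the cultures. Endothelial genes summed to 63.9 to 122 RPKM in the tumours (at most 97.4 RPKM without the library labelled mouse 5) and 22.1 to 24.7 RPKM in the cultures. Some genes of the fibroblast and endothelial lists were thus expressed by the cultured cells themselves: Col5a1, a fibrillar collagen chosen here after its values were seen, was lower in the tumours, at 16.8 to 31.0 RPKM in the tumours (median 22.9) and 48.3, 45.3 and 41.0 RPKM in the cultures. Tpsb2, a mast cell tryptase, was at 0.0687 RPKM in the library labelled mouse 5, and the mast cell sum there was 3.84 RPKM, against 65.5 to 105 RPKM in the other 5 tumours. No gene of the B and plasma cell or Schwann cell lists passed the filter, and limma called 0 of 3 skeletal muscle genes, with 0 at an unadjusted p under 0.05.

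**Figure D3:**
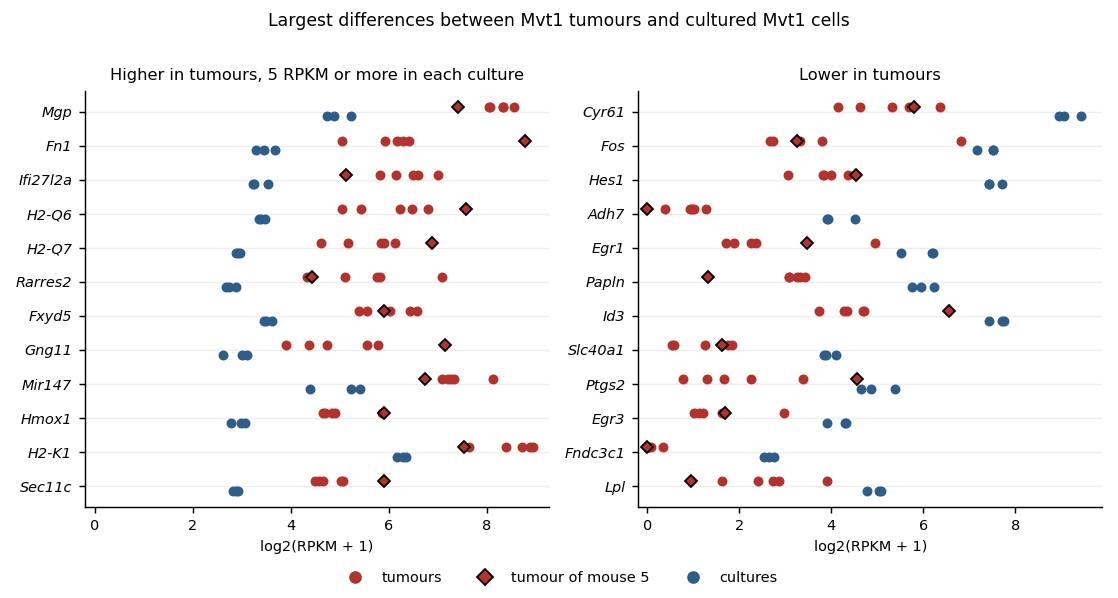
RPKM on the log2(RPKM + 1) scale of the genes expressed in culture that rose most in the tumours (left) and of the genes that fell most (right), one point a library. Red points are Mvt1 tumours, with the library labelled mouse 5 as a diamond, and blue points the cultures. Mgp lies between 169 and 376 RPKM in the tumours and Cyr61 between 16.6 and 81.0 RPKM, apart from their cultures.

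Among tumour-cell genes, the identity of the line was checked first. Myc was between 35.7 and 412 RPKM in the tumours (median 382), against 346, 344 and 465 RPKM in the cultures. The lowest tumour value is that of the library labelled mouse 5. The difference was -0.55 ± 0.72 (SE, adjusted p = 0.588) with it and 0.02 (adjusted p = 0.922) without it, so Myc was not called in either fit. Vegfa, the labelled VEGF driver, was between 10.9 and 25.3 RPKM in the tumours (median 16.8), against 7.86, 11.8 and 13.0 RPKM in the cultures, with overlapping groups and a difference of 0.66 ± 0.24 (SE, adjusted p = 0.0619). Krt8, a keratin of simple epithelia, was between 303 and 479.9 RPKM in the tumours (median 375), against 238, 247 and 222 RPKM in the cultures. Every tumour was above every culture, and the difference was 0.71 ± 0.15 (SE, adjusted p = 0.00522), or 0.73 without the library labelled mouse 5. Its partner Krt18 was not called, with a difference of 0.38 ± 0.34 (SE, adjusted p = 0.426). Only 6 of 18 luminal epithelial genes passed the filter, and Epcam was at 0.170, 0.731 and 0.684 RPKM in the cultures, so the cultured line held Krt8 at a high level while most other luminal markers were low. Of the regulators of epithelial-mesenchymal transition, 5 of 8 tested were higher, with and without the library labelled mouse 5, against 18.5% and 24.6% of all genes. Of the 8, 2 were under 1 RPKM in every culture, and 3 of the other 6 were higher. The 5 were Prrx1, Zeb2, Twist2, Twist1 and Fn1, genes that fibroblasts also express, and the fibroblast sum moved with them. Its part in their rise was not tested.

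Interferon-stimulated genes rose together. All 22 tested were higher in the tumours, with a median difference of 1.49, and 22 of 22 with a median of 1.60 without the library labelled mouse 5, against 18.5% and 24.6% of all genes. Of these 5 were under 1 RPKM in every culture, and the other 17 were also all higher in both fits. Their summed level was 336 to 461 RPKM in the tumours and 145 to 173 RPKM in the cultures, so the groups did not overlap. Sequences just upstream of 2 members are shown because the interferon-stimulated response element that such promoters are known for can be read in them. They run 5′ to 3′ on the strand of the gene from 250 bases before to 50 bases after the annotated start (RefSeq, build GRCm38.p6, not the mm9 build of the deposited values), with capitals marking GAAANNGAAA on either strand. Ifit3 lies at chr19:34583279-34583578 on the plus strand, and Isg15, chosen for display after its sequence and values were seen, at chr4:156200769-156201068 on the minus strand, where 3 matches overlap.
Ifit3: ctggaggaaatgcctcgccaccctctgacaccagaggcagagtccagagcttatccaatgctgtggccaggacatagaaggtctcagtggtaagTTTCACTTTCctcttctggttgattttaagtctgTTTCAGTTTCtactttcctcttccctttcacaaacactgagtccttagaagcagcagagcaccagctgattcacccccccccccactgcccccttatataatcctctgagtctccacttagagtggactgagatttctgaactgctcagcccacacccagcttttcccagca
Isg15: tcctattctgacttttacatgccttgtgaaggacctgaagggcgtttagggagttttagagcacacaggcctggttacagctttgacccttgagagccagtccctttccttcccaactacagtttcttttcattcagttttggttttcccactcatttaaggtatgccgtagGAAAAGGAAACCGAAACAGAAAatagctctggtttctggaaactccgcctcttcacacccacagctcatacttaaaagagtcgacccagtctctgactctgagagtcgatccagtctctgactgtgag
Of the 15 members with a promoter in the table, 7 held the motif (46.7%), as did 3.99% of 27025 genes of the whole table. Of 8 MHC class I genes with a promoter, B2m alone held it (12.5%). A match describes the letters only.

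Ifit3, which binds viral RNA complexes, was between 7.48 and 10.4 RPKM in the tumours (median 8.76), against 0.358, 0.150 and 0.354 RPKM in the cultures. All tumours lay close together, far above the cultures. The difference was 2.96 ± 0.13 (SE, adjusted p = 3.98e-07) and 2.97 without the library labelled mouse 5. Ifit1, which recognises the cap of viral RNA, was between 6.28 and 10.2 RPKM in the tumours (median 7.16), against 0.401, 0.407 and 0.458 RPKM in the cultures, with a difference of 2.59 ± 0.14 (SE, adjusted p = 1.78e-06). Irf7, the transcription factor that amplifies type I interferon, was between 20.0 and 45.5 RPKM in the tumours (median 28.6), against 2.35, 1.77 and 2.98 RPKM in the cultures. In both genes all tumours were far above all cultures. Irf7 differed by 3.16 ± 0.24 (SE, adjusted p = 1.92e-05). Zbp1, a sensor of Z-form nucleic acid, was between 7.73 and 23.9 RPKM in the tumours (median 19.7), against 0.515, 0.509 and 0.452 RPKM in the cultures, with a difference of 3.62 ± 0.29 (SE, adjusted p = 2.08e-05). Isg15, a ubiquitin-like modifier already well expressed in the dish, was between 32.2 and 53.5 RPKM in the tumours (median 47.5), against 29.1, 22.0 and 24.3 RPKM in the cultures. Its difference was the smaller 0.80 ± 0.16 (SE, adjusted p = 0.00485), with the groups still apart. Macrophage, T and NK cell genes were all but absent from the cultures and present in every tumour, and their part in the rise of the interferon-stimulated genes was not tested.

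The MHC class I genes moved the same way. Of 10 tested, 7 were higher and none lower, with a median difference of 1.90, and 7 with a median of 1.85 without the library labelled mouse 5, against 18.5% and 24.6% of all genes higher. Only Nlrc5 was under 1 RPKM in every culture, and 6 of the other 9 were higher in both fits. B2m, the common light chain, was between 967 and 1953 RPKM in the tumours (median 1687), against 352, 425 and 399.7 RPKM in the cultures. Every tumour exceeded every culture. The difference was 1.99 ± 0.20 (SE, adjusted p = 9.79e-05). Nlrc5, the transactivator of class I genes, was between 2.58 and 8.94 RPKM in the tumours (median 7.31), against 0.104, 0.0820 and 0.0784 RPKM in the cultures, and Tap1, a subunit of the peptide transporter, was between 12.6 and 26.7 RPKM in the tumours (median 23.1), against 4.99, 4.84 and 5.30 RPKM in the cultures. Their differences were 2.73 ± 0.28 (SE, adjusted p = 0.000109) and 1.82 ± 0.23 (SE, adjusted p = 0.000375). H2-K1, a class I heavy chain, was between 185 and 495 RPKM in the tumours (median 377), against 80.9, 77.5 and 70.7 RPKM in the cultures, with a difference of 2.08 ± 0.33 (SE, adjusted p = 0.0013). H2-K1, H2-Q6, H2-Q7 and H2-D1 are near-identical in places, so their reads may be split between them. Tap2, Tapbp and Psmb10, chosen for mention after their values were seen, were not called, with differences of -0.07, 0.01 and 0.46 without the library labelled mouse 5. Host cells also carry class I. The MHC class II list, a mark of host antigen-presenting cells, summed to 188 to 779 RPKM in the tumours and to 0.489 to 0.980 RPKM in the cultures. Its part in the class I levels was not tested.

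**Figure D4:**
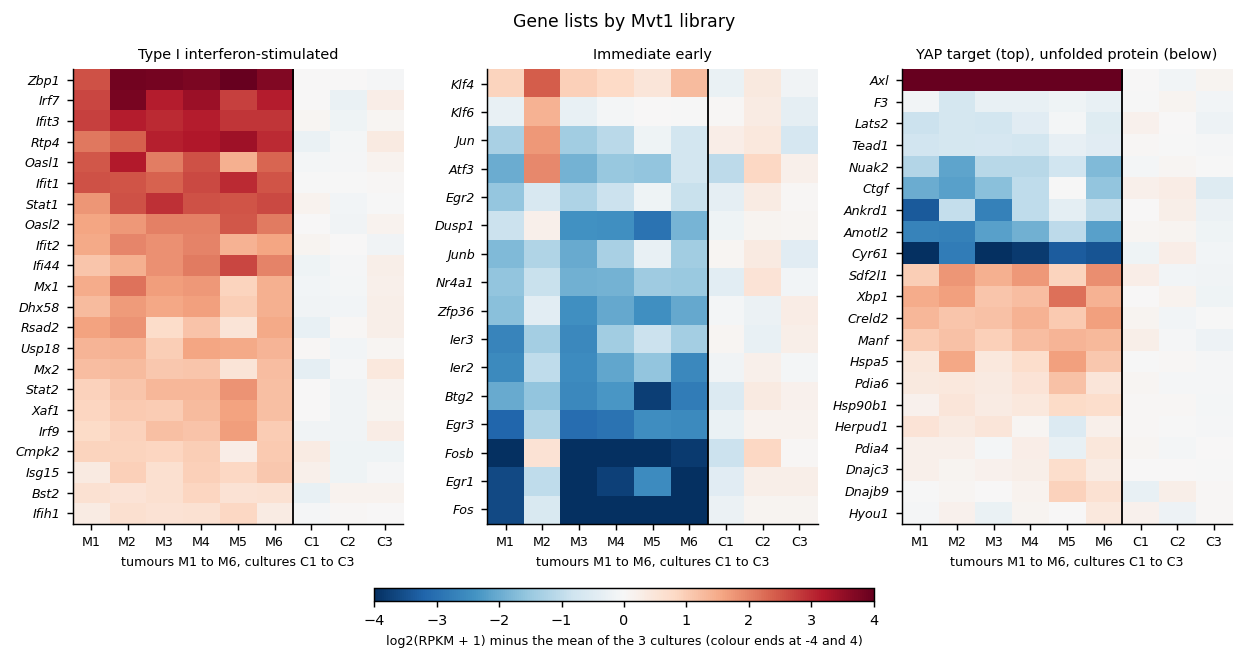
Level of each gene in each library as log2(RPKM + 1) minus the mean of the 3 cultures, coloured from -4 (blue) to 4 (red), with the 6 tumours left of the 3 cultures. Panels hold the interferon-stimulated, immediate early, YAP target and unfolded protein response lists. Interferon-stimulated genes are red in all tumours, whereas Fos, Egr1 and Cyr61 are blue and, for Fos, palest in the tumour of mouse 2.

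Immediate early genes ran the other way. Of 16 tested, 11 were lower and 1 higher in the tumours, with a median difference of -1.71, and again 11 and 1 with a median of -1.65 without the library labelled mouse 5. By comparison 15.5% and 23.9% of all genes were lower, and 20% and 29.6% of those at 5 RPKM or more in each culture. The CArG box, the site of serum response factor, stood in the promoters of 2 of 13 members (15.4%) and in 1.81% of all genes. Their sum was 186 to 952 RPKM in the tumours and 931 to 1258 RPKM in the cultures, and the highest tumour, that of mouse 2, reached into the culture range. Without that tumour 13 were lower and 1 higher, where 1568 of 11059 genes were lower and 1970 higher. Fos, a subunit of the AP-1 transcription factor, was at 13.0, 111, 5.35, 5.67, 8.57 and 8.93 RPKM in the tumours of mice 1 to 6, against 144, 183 and 183 RPKM in the cultures. One tumour, that of mouse 2, came near the cultures and the other 5 were an order of magnitude lower, and the groups did not overlap. The difference was -3.64 ± 0.80 (SE, adjusted p = 0.00718). Egr1, a zinc finger factor induced by serum, was between 2.28 and 29.8 RPKM in the tumours (median 3.94), against 44.9, 72.2 and 72.9 RPKM in the cultures, and its difference was -3.20 ± 0.65 (SE, adjusted p = 0.00477). Egr3, of the same family, differed by -2.57 ± 0.39 (SE, adjusted p = 0.000961), and Btg2, an antiproliferative gene, by -2.51 ± 0.42 (SE, adjusted p = 0.00172). Ier2, a nuclear protein induced by growth factors, was between 16.9 and 51.5 RPKM in the tumours (median 20.9), against 95.0, 122 and 101 RPKM in the cultures, and the orphan nuclear receptor Nr4a1 was between 2.31 and 5.69 RPKM in the tumours (median 3.31), against 8.32, 17.3 and 10.5 RPKM in the cultures. Both were lower in every tumour than in every culture, with differences of -2.05 ± 0.34 (SE, adjusted p = 0.00165) and -1.54 ± 0.26 (SE, adjusted p = 0.00194). Klf4, the member that was higher and is named after its values were seen, lost its call under several of the other settings tried. The tumour of mouse 2 also had the highest values of Egr1 (29.8 RPKM) and Egr3 (6.86 RPKM) among the tumours.

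Most YAP targets fell. Of 9 tested, 6 were lower and 1 higher (median -1.35), and 7 and 1 without the library labelled mouse 5 (median -1.47), against 15.5% and 23.9% of all genes lower. Leaving out culture 1, culture 2, mouse 2 or mouse 3 left 4 lower. In the same order 1021 of 11042, 992 of 11044, 1568 of 11059 and 1479 of 11006 genes were lower. Cyr61 and Axl, the members that moved most and in opposite directions, are shown with the TEAD site GGAATG in capitals, on either strand. In RefSeq (GRCm38.p6) Cyr61 is named Ccn1, at chr3:145649936-145650235 on the minus strand, and Axl is at chr7:25788684-25788983 on the minus strand.
Ccn1: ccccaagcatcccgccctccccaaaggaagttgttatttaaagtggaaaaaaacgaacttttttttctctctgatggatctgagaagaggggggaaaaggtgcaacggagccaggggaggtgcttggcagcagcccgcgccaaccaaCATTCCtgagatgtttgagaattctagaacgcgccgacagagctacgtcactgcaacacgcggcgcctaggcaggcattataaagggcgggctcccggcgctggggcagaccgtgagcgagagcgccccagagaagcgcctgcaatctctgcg
Axl: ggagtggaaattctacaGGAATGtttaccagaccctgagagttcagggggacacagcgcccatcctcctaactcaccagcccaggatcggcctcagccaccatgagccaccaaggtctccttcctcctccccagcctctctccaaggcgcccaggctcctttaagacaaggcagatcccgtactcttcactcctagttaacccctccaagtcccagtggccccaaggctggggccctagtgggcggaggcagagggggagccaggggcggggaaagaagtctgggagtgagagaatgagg
In the YAP target list the motif stood in 6 of 7 YAP targets with a promoter in the table (85.7%) and in 16.6% of all 27025 genes. Cyr61, a secreted matrix-associated protein, was between 16.6 and 81.0 RPKM in the tumours (median 44.8), against 497, 687 and 529.8 RPKM in the cultures. Every tumour was several-fold below every culture. The difference was -3.82 ± 0.43 (SE, adjusted p = 0.000179), and -3.92 without the library labelled mouse 5. Amotl2, an angiomotin-family binder of YAP, was between 2.34 and 9.50 RPKM in the tumours (median 3.80), against 21.8, 22.1 and 18.2 RPKM in the cultures and differed by -2.11 ± 0.32 (SE, adjusted p = 0.00106). Tead1, the DNA-binding partner of YAP, differed by -0.60 ± 0.11 (SE, adjusted p = 0.00362).

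Axl, a receptor tyrosine kinase for Gas6, went against its list. It was at 61.7, 58.9, 62.0, 49.8, 95.9 and 77.6 RPKM in the tumours of mice 1 to 6, against 0.554, 0.439 and 0.655 RPKM in the cultures. All tumours were at a like high level and all cultures under 1 RPKM. The difference was 5.44 ± 0.18 (SE, adjusted p = 1.13e-07), and 5.33 without the library labelled mouse 5. Axl is also expressed by macrophages, dendritic cells and fibroblasts, whose genes rose in every tumour, and their part in its level was not tested. Genes of the actin cytoskeleton fell in part: 7 of 14 were lower and none higher (median -0.45), and 8 of 14 without the library labelled mouse 5, against the same shares of all genes. The CArG box stood in 3 of 13 of their promoters (23.1%). Actn1, an actin cross-linker, was between 36.2 and 43.7 RPKM in the tumours (median 40.7), against 76.0, 70.8 and 66.9 RPKM in the cultures, with a difference of -0.80 ± 0.09 (SE, adjusted p = 0.000228). Zyx, of focal adhesions, was between 47.6 and 87.3 RPKM in the tumours (median 63.7), against 129, 116 and 109.8 RPKM in the cultures and differed by -0.83 ± 0.19 (SE, adjusted p = 0.00817).

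The largest falls also included genes of other kinds. Hes1, the transcriptional repressor downstream of Notch, was between 7.30 and 22.3 RPKM in the tumours (median 14.1), against 172, 208 and 170.4 RPKM in the cultures. Every tumour was below every culture by several-fold. The difference was -3.59 ± 0.28 (SE, adjusted p = 1.98e-05), and -3.71 without the library labelled mouse 5. Id3, an inhibitor of helix-loop-helix factors, was between 12.2 and 93.9 RPKM in the tumours (median 22.1), against 209, 214 and 172 RPKM in the cultures, its highest tumour being the library labelled mouse 5. It differed by -2.91 ± 0.51 (SE, adjusted p = 0.00218), and by -3.28 without that library. Adh7, an alcohol dehydrogenase that also acts on retinol, was between 0 and 1.42 RPKM in the tumours (median 0.930), against 21.8, 14.0 and 14.3 RPKM in the cultures, with a difference of -3.36 ± 0.28 (SE, adjusted p = 2.84e-05). Papln, an extracellular matrix protein, was between 1.48 and 9.83 RPKM in the tumours (median 8.05), against 74.2, 53.4 and 61.3 RPKM in the cultures. Slc40a1, the iron exporter ferroportin, was between 0.454 and 2.58 RPKM in the tumours (median 1.72), against 13.4, 16.1 and 13.8 RPKM in the cultures. In both genes tumours and cultures stayed apart. Their differences were -3.07 ± 0.42 (SE, adjusted p = 0.000555) and -2.68 ± 0.31 (SE, adjusted p = 0.000216). Ptgs2, the inducible cyclooxygenase, was between 0.706 and 22.5 RPKM in the tumours (median 2.98), against 28.2, 40.6 and 23.9 RPKM in the cultures, with a difference of -2.64 ± 0.74 (SE, adjusted p = 0.0217). Lpl, lipoprotein lipase, was listed as a fat cell gene but was between 0.932 and 14.0 RPKM in the tumours (median 5.00), against 32.9, 31.9 and 26.5 RPKM in the cultures. The cultured cells thus expressed it above every tumour, and it differed by -2.55 ± 0.53 (SE, adjusted p = 0.00575). Fndc3c1 was between 0 and 0.266 RPKM in the tumours (median 0.0128), against 5.24, 4.82 and 5.71 RPKM in the cultures, with a difference of -2.56 ± 0.13 (SE, adjusted p = 1.3e-06).

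Of the genes that every culture expressed at 5 RPKM or more and that stood in no host list, 98 rose by at least 1 with groups apart. Host cells may express such genes too. The fibroblast and macrophage sums were above those of the cultures in every tumour, and their part in these rises was not tested. Mgp, the matrix Gla protein that inhibits calcification, was between 169 and 376 RPKM in the tumours (median 294), against 36.7, 25.7 and 28.6 RPKM in the cultures. It was the largest of these rises, at 3.17 ± 0.23 (SE, adjusted p = 1.33e-05), with every tumour above every culture. Fn1, fibronectin, was between 31.9 and 439 RPKM in the tumours (median 74.1), against 11.9, 8.81 and 10.0 RPKM in the cultures. The library labelled mouse 5 was the highest, and the difference was 2.95 ± 0.65 (SE, adjusted p = 0.00711) with it and 2.49 (adjusted p = 0.000198) without it. Hmox1, which degrades haem, was between 24.3 and 58.9 RPKM in the tumours (median 28.4), against 5.91, 6.90 and 7.41 RPKM in the cultures and differed by 2.20 ± 0.31 (SE, adjusted p = 0.000641). Fxyd5, a modulator of the sodium pump and of cell adhesion, was between 41.1 and 94.9 RPKM in the tumours (median 61.2), against 9.96, 10.2 and 11.3 RPKM in the cultures. Sec11c, a subunit of the signal peptidase, was between 21.5 and 58.7 RPKM in the tumours (median 27.9), against 6.04, 6.34 and 6.65 RPKM in the cultures. Neither gene's groups overlapped, and the differences were 2.46 ± 0.25 (SE, adjusted p = 0.000102) and 2.07 ± 0.28 (SE, adjusted p = 0.000483). Rarres2, the chemoattractant chemerin, was between 19.0 and 136 RPKM in the tumours (median 43.3), against 6.42, 5.41 and 5.71 RPKM in the cultures and differed by 2.65 ± 0.53 (SE, adjusted p = 0.00477). Ifi27l2a, an interferon-induced gene, was between 34.0 and 127 RPKM in the tumours (median 79.6), against 8.58, 8.33 and 10.6 RPKM in the cultures, with a difference of 2.86 ± 0.35 (SE, adjusted p = 0.000284). Gng11, a G protein gamma subunit, differed by 2.34 ± 0.61 (SE, adjusted p = 0.0157), and by 1.96 without the library labelled mouse 5. The remaining members were H2-Q6, H2-Q7, H2-K1 and Mir147, a microRNA locus whose value cannot be told from the longer transcript that overlaps it.

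The unfolded protein response, which adjusts the folding capacity of the endoplasmic reticulum, rose in part. Of 12 genes tested, 7 were higher and none lower (median 0.52), and 9 without the library labelled mouse 5 (median 0.43), against 18.5% and 24.6% of all genes higher. Leaving out any 1 culture left 4 higher. Without cultures 1, 2 and 3, 1630 of 11042, 1341 of 11044 and 1329 of 11049 genes were higher. Creld2, a chaperone-like protein of the endoplasmic reticulum, is shown with the ER stress element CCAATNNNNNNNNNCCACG in capitals, read on either strand (RefSeq, GRCm38.p6, chr15:88819396-88819695, plus strand).
Creld2: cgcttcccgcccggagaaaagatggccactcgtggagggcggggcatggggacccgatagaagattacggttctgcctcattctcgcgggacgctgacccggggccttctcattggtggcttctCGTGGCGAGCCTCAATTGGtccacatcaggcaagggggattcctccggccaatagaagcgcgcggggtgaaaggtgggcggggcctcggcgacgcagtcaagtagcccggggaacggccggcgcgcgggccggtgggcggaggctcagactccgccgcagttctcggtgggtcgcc
This motif stood in 5 of 10 members with a promoter (50%) and in 0.137% of all genes. Creld2 was between 13.0 and 20.2 RPKM in the tumours (median 15.1), against 6.37, 5.36 and 5.70 RPKM in the cultures. No tumour reached down to the cultures. Its difference was 1.28 ± 0.14 (SE, adjusted p = 0.000121). Xbp1, the transcription factor of the response, was between 42.5 and 90.9 RPKM in the tumours (median 53.8), against 19.6, 21.1 and 17.0 RPKM in the cultures, and Manf, a protein of the endoplasmic reticulum that is secreted under stress, was between 33.8 and 44.9 RPKM in the tumours (median 40.6), against 20.2, 16.4 and 14.7 RPKM in the cultures. They differed by 1.51 ± 0.21 (SE, adjusted p = 0.000631) and 1.17 ± 0.13 (SE, adjusted p = 0.000132). Sdf2l1, of the chaperone complex, differed by 1.45 ± 0.24 (SE, adjusted p = 0.00153). Plasma cells and other secretory host cells also use this pathway. The B and plasma cell genes, none of which passed the filter, summed to 0.422 to 27.1 RPKM in the tumours and to 0.0378 to 0.135 RPKM in the cultures, and their part was not tested.

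Of 15 mitosis genes limma called 0, with 6 tumours or with 5, and 0 had an unadjusted p under 0.05 in either (median difference -0.01). Of 14 ribosomal protein genes 0 were called with 6 tumours, 0 had an unadjusted p under 0.05, and 2 were higher with 5 tumours, against 24.6% of all genes. DNA replication genes counted 4 higher of 16 (median 0.60) and 8 without the library labelled mouse 5, but 1 without culture 2 or culture 3 and 11 without culture 1. With all libraries 18.5% of all genes were higher, and 10.9% of those at 5 RPKM or more in each culture. Without the library labelled mouse 5 these shares were 24.6% and 17.3%. No DNA replication gene was under 1 RPKM in every culture. Without cultures 1, 2 and 3, 1630 of 11042, 1341 of 11044 and 1329 of 11049 genes were higher. Cdt1, a licensing factor, was between 6.83 and 12.2 RPKM in the tumours (median 10.1), against 6.79, 3.34 and 4.03 RPKM in the cultures, with a difference of 0.96 ± 0.21 (SE, adjusted p = 0.00606). Of 24 Myc targets 1 was higher and 3 lower (median 0.05), against 18.5% and 15.5% of all genes. Without the library labelled mouse 5, 7 Myc targets were higher and 4 lower, against 24.6% and 23.9%. Tfrc, the transferrin receptor, was the largest of the falls among them: it was between 5.53 and 10.4 RPKM in the tumours (median 8.67), against 26.9, 25.6 and 20.4 RPKM in the cultures, with a difference of -1.48 ± 0.19 (SE, adjusted p = 0.000375). Cdkn1b, which encodes the cyclin-dependent kinase inhibitor p27, was between 12.9 and 29.0 RPKM in the tumours (median 14.0), against 30.8, 37.5 and 30.0 RPKM in the cultures. It differed by -1.01 ± 0.24 (SE, adjusted p = 0.00983), and Ccnd2, a D-type cyclin, by 2.11 ± 0.32 (SE, adjusted p = 0.00104). Ccnd2 averaged 0.0056 RPKM in the cultures and 3.74 RPKM in the tumours. The limit given above for genes under 1 RPKM in every culture thus holds for it. The part of host cells in its level was not tested.

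Of 20 hypoxia and glycolysis genes 7 were higher and 1 lower (median 0.68), and 9 and 2 without the library labelled mouse 5, against 18.5% and 24.6% of all genes higher. Of the 20, 2 were under 1 RPKM in every culture. Among the other 18, 6 were higher and 1 lower, and 7 and 2 without the library labelled mouse 5. Leaving out any 1 culture left 4 of 20 higher, where 1630 of 11042, 1341 of 11044 and 1329 of 11049 genes were higher without cultures 1, 2 and 3, so the list then stood nearer to all genes. Adm, the vasodilator adrenomedullin, was between 1.53 and 9.94 RPKM in the tumours (median 2.65), against 0.0878, 0.0620 and 0.0367 RPKM in the cultures. The groups were apart, and the difference was 1.97 ± 0.40 (SE, adjusted p = 0.00467). Higd1a, a mitochondrial hypoxia-inducible gene, was between 10.6 and 23.1 RPKM in the tumours (median 14.0), against 6.96, 5.86 and 6.26 RPKM in the cultures and differed by 1.14 ± 0.21 (SE, adjusted p = 0.00303), whereas the histone demethylase Kdm3a fell, at -0.80 ± 0.13 (SE, adjusted p = 0.00161). NRF2 targets split, with 3 higher and 4 lower of 12, against 18.5% and 15.5% of all genes. Without the library labelled mouse 5 they counted 3 and 5, against 24.6% and 23.9%. Hmox1 was the riser given above, and Osgin1, an oxidative stress gene, was between 4.37 and 7.97 RPKM in the tumours (median 7.05), against 25.1, 28.8 and 41.2 RPKM in the cultures, with a difference of -2.14 ± 0.22 (SE, adjusted p = 0.000106). Of 12 p53 targets 2 were lower and none higher, against 15.5% and 18.5% of all genes. Without the library labelled mouse 5, 4 p53 targets were lower and 1 higher, against 23.9% and 24.6%. Plk2, a polo-like kinase among them, was between 6.42 and 27.5 RPKM in the tumours (median 10.1), against 30.2, 50.1 and 38.2 RPKM in the cultures and differed by -1.71 ± 0.39 (SE, adjusted p = 0.0086). Circadian genes counted 6 lower and 1 higher of 13 (median -0.63), against 15.5% and 18.5% of all genes. Without the library labelled mouse 5 these counts were 8 and 2, against 23.9% and 24.6%. Only 2 were lower without culture 2 or culture 3, where 992 of 11044 and 915 of 11049 genes were lower. Dbp, an output gene of the clock, was between 2.53 and 9.23 RPKM in the tumours (median 3.29), against 16.1, 20.2 and 15.0 RPKM in the cultures, with a difference of -1.86 ± 0.30 (SE, adjusted p = 0.00142). The remaining metabolic and stress lists are set against 18.5% of all genes higher and 15.5% lower. Oxidative phosphorylation had 4 higher and 2 lower of 16, cholesterol synthesis 4 and 0 of 17, fatty acid synthesis 0 and 2 of 12, heat shock 1 and 1 of 10, and the amino acid stress genes driven by ATF4 1 and 2 of 17. Without the library labelled mouse 5 these counts were 4 and 4, 4 and 1, 1 and 4, 0 and 1, and 3 and 3 in the same order, against 24.6% and 23.9% of all genes.

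Among secreted proteins, of 13 proteases and inhibitors 6 were higher and none lower (median 1.36), and 7 without the library labelled mouse 5, against 18.5% and 24.6% of all genes with 6 and 5 tumours. Without any 1 culture 4 were higher, where 1630 of 11042, 1341 of 11044 and 1329 of 11049 genes were without cultures 1, 2 and 3. Of the 13, 3 were under 1 RPKM in every culture, and 5 of the other 10 were higher in both fits. Mmp3, stromelysin, was between 35.4 and 66.9 RPKM in the tumours (median 51.3), against 4.53, 5.08 and 10.4 RPKM in the cultures. Every tumour was above every culture, and the difference was 2.80 ± 0.27 (SE, adjusted p = 7.79e-05). Mmp13, a collagenase, was between 11.3 and 63.2 RPKM in the tumours (median 30.2), against 0.696, 1.15 and 1.09 RPKM in the cultures, with a difference of 3.84 ± 0.49 (SE, adjusted p = 0.000363). Timp1, a metalloprotease inhibitor, was between 40.8 and 140.0 RPKM in the tumours (median 70.2), against 18.8, 17.0 and 18.7 RPKM in the cultures and differed by 1.96 ± 0.40 (SE, adjusted p = 0.00487). Chemokines and cytokines counted 4 higher and 3 lower of 13, against 18.5% and 15.5% of all genes. Without the library labelled mouse 5 they counted 5 and 3 of 12, against 24.6% and 23.9%. The 4 that were higher were all under 1 RPKM in every culture, where 82.7% of all genes were higher. Ccl7, a monocyte chemoattractant, was between 10.5 and 75.2 RPKM in the tumours (median 44.1), against 0.311, 0.475 and 0.389 RPKM in the cultures, and Cxcl1, a neutrophil chemoattractant, was between 4.06 and 25.9 RPKM in the tumours (median 15.7), against 34.0, 45.7 and 43.7 RPKM in the cultures. Their differences were 4.55 ± 0.57 (SE, adjusted p = 0.000341) and -1.59 ± 0.49 (SE, adjusted p = 0.0315). Cxcl2, another neutrophil chemoattractant, was between 0.837 and 6.17 RPKM in the tumours (median 3.26), against 0, 0.0566 and 0.0167 RPKM in the cultures. Its difference was 1.94 ± 0.35 (SE, adjusted p = 0.00273), under the limit given above for genes under 1 RPKM in every culture. Of 9 angiogenic ligands, Angpt2, Pdgfb and Pgf were higher and Vegfb lower, or 4 higher and 1 lower without the library labelled mouse 5, against the same shares of all genes. The 3 that were higher were also under 1 RPKM in every culture. Angpt2, which endothelial cells make, was between 4.23 and 11.9 RPKM in the tumours (median 8.76), against 0.311, 0.565 and 0.850 RPKM in the cultures and differed by 2.47 ± 0.30 (SE, adjusted p = 0.000268). Fibroblast, macrophage and endothelial genes rose beside all of these, and their part was not tested.

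The same contrast was made in the other lines. The test is of the difference between lines in the tumour-culture difference, in 1 fit over the 6 groups. The comparisons with 6DT1 and with Met1 share the Mvt1 libraries, so they are not independent. Of 12482 genes, 693 (5.55%) had a higher and 497 (3.98%) a lower tumour-culture difference in Mvt1 than in 6DT1. Without the library labelled mouse 5 these were 868 (6.97%) and 648 (5.2%) of 12461. Against Met1, 2249 (18%) were higher and 1537 (12.3%) lower, and 2392 (19.2%) and 1651 (13.2%) without the library labelled mouse 5. Median-ratio rescaling gave 1860 higher and 1905 lower against Met1, and quantile normalization 1730 and 1787. Leaving out the Met1 tumour of mouse 1 gave 2786 and 1999, and leaving out the 6DT1 tumour numbered 0 gave 663 higher and 476 lower against 6DT1. The 20 differences between lines taken as the largest kept their sign and call without the library labelled mouse 5, and also without any 1 tumour of the other line compared. Leaving out Mvt1 culture 2 or culture 3 gave 690 and 760 calls against 6DT1 in all, and leaving out 6DT1 culture 1 or culture 2 gave 757 and 746, in place of 1190.

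The amino acid stress list fell in both other lines, unlike in Mvt1. ATF4 is the transcription factor that cells use when amino acids run short or the endoplasmic reticulum is stressed, and its targets make and import amino acids. In 6DT1, 18 of 18 were lower in tumours than in cultures (median -1.75), against 16.4% of all genes, and in Met1 17 of 18 (median -1.71), against 26.8%. In Mvt1 1 was higher and 2 lower of 17 (median 0.16). The difference between lines was higher in Mvt1 than in 6DT1 for 14 of 18 and lower for none (median 1.64), and for 16 without the library labelled mouse 5, against 5.55% and 6.97% of all genes. Over the leave-one-out fits this count was between 11 and 16. Against Met1 15 were higher and 1, Vldlr, lower (median 1.72), and 16 and 1 without the library labelled mouse 5, or without it and the Met1 tumour of mouse 1 together, against 18% and 19.2% of all genes with and without the library labelled mouse 5.

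Asns, asparagine synthetase, chosen with Chac1 and Atf4 after their values were seen, was at 7.12 to 15.4 RPKM in Mvt1 tumours against 13.3 to 14.7 RPKM in Mvt1 cultures. The 6DT1 values were 16.8 to 36.2 RPKM in 6DT1 tumours against 139 to 179 RPKM in 6DT1 cultures, and the Met1 values 7.69 to 75.2 RPKM in Met1 tumours against 65.2 to 132 RPKM in Met1 cultures. Cultured Mvt1 cells thus had less Asns than the cultures of either other line. Chac1, which degrades glutathione, was at 0.783 to 2.82 RPKM in Mvt1 tumours against 0.643 to 1.16 RPKM in Mvt1 cultures, at 0.555 to 4.77 RPKM in 6DT1 tumours against 13.0 to 20.2 RPKM in 6DT1 cultures, and at 0.825 to 2.93 RPKM in Met1 tumours against 19.0 to 39.5 RPKM in Met1 cultures. Its difference was higher in Mvt1 than in 6DT1 by 3.45 ± 0.46 (SE, adjusted p = 3.04e-05) and than in Met1 by 4.11 ± 0.46 (SE, adjusted p = 5.07e-07). Mthfd2, of mitochondrial folate metabolism, was at 5.10 to 18.1 RPKM in Mvt1 tumours against 1.54 to 3.08 RPKM in Mvt1 cultures, but at 10.4 to 31.9 RPKM in 6DT1 tumours against 82.9 to 102 RPKM in 6DT1 cultures and at 8.10 to 18.4 RPKM in Met1 tumours against 48.1 to 108 RPKM in Met1 cultures. It rose in Mvt1 tumours and fell in those of both other lines. The difference between lines was 4.02 ± 0.46 (SE, adjusted p = 3.02e-06) against 6DT1 and 4.11 ± 0.45 (SE, adjusted p = 4.31e-07) against Met1. Atf4 itself was 1.63 ± 0.31 (SE, adjusted p = 0.00115) higher against 6DT1 and 1.88 ± 0.30 (SE, adjusted p = 5.41e-05) against Met1. Vldlr, the very low density lipoprotein receptor, was at 0.487 to 3.06 RPKM in Mvt1 tumours against 4.08 to 5.44 RPKM in Mvt1 cultures and at 3.16 to 28.3 RPKM in Met1 tumours against 6.05 to 14.2 RPKM in Met1 cultures.

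**Figure D5:**
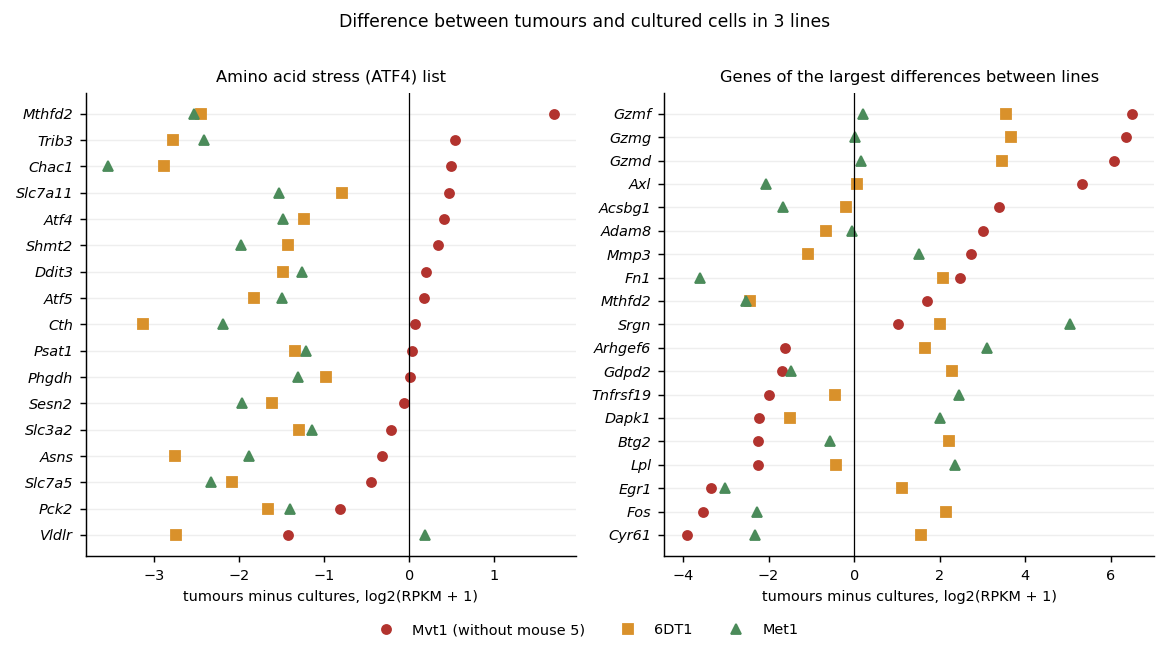
Tumour-culture difference on the log2(RPKM + 1) scale in Mvt1 without the library labelled mouse 5 (red circles), 6DT1 (orange squares) and Met1 (green triangles) for the ATF4 list (left) and for the genes whose difference was most unlike that of another line (right). On the left the Mvt1 points scatter around 0 while nearly all of 6DT1 and Met1 lie below it. On the right Axl is at 5.33 in Mvt1.

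Axl, low in cultured Mvt1 cells, was at 38.9 to 57.5 RPKM in 6DT1 tumours against 44.8 to 49.7 RPKM in 6DT1 cultures and at 4.45 to 27.2 RPKM in Met1 tumours against 31.8 to 50.4 RPKM in Met1 cultures. Both other lines expressed it in culture. Its difference was higher in Mvt1 by 5.38 ± 0.46 (SE, adjusted p = 3.8e-08) than in 6DT1 and by 7.49 ± 0.45 (SE, adjusted p = 7.58e-11) than in Met1. Adam8, a membrane metalloprotease, was at 12.2 to 22.9 RPKM in Mvt1 tumours against 0.918 to 1.52 RPKM in Mvt1 cultures and at 4.54 to 12.1 RPKM in 6DT1 tumours against 12.4 to 13.7 RPKM in 6DT1 cultures, and the difference between lines was 3.73 ± 0.34 (SE, adjusted p = 1.43e-07). Acsbg1, an acyl-CoA synthetase, was at 8.00 to 18.1 RPKM in Mvt1 tumours against 0.0775 to 0.402 RPKM in Mvt1 cultures and at 6.44 to 15.5 RPKM in 6DT1 tumours against 9.61 to 11.7 RPKM in 6DT1 cultures, a difference of 3.67 ± 0.51 (SE, adjusted p = 4e-05). In these 3 genes the Mvt1 cultures were below every Mvt1 tumour. Mmp3 was at 12.4 to 61.3 RPKM in 6DT1 tumours against 56.1 to 62.7 RPKM in 6DT1 cultures, and its difference was 3.87 ± 0.91 (SE, adjusted p = 0.00729) higher in Mvt1. Against Met1, Fn1 differed by 6.57 ± 0.93 (SE, adjusted p = 1.27e-05), with 3.35 to 80.2 RPKM in Met1 tumours against 196 to 412 RPKM in Met1 cultures. The granzymes Gzmd, Gzmf and Gzmg, proteases of killer cells with near-identical sequences that may share reads, differed by 5.97, 6.34 and 6.38, and Gzmf was at 17.0 to 251 RPKM in Mvt1 tumours and listed at 0 in each Mvt1 culture, and at 0.0257 to 0.328 RPKM in Met1 tumours and listed at 0 in each Met1 culture.

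For all 11 immediate early genes that were lower in Mvt1 tumours, every Mvt1 culture was above every 6DT1 culture. The share of all genes that lay this way was not counted. The values of the same Mvt1 cultures also entered the choice of the 11, so the count is not read as a result. Fos was at 1.81 to 9.49 RPKM in 6DT1 tumours against 0.186 to 0.325 RPKM in 6DT1 cultures, and the difference between lines was -5.79 ± 0.85 (SE, adjusted p = 8.67e-05). Cyr61, of the YAP target list, was at 7.13 to 42.4 RPKM in 6DT1 tumours against 5.58 to 6.81 RPKM in 6DT1 cultures, a difference between lines of -5.39 ± 0.59 (SE, adjusted p = 1.95e-06). Both genes were higher in every 6DT1 tumour than in every 6DT1 culture, and cultured 6DT1 cells had far less of them than cultured Mvt1 cells. Btg2 was at 14.4 to 18.5 RPKM in 6DT1 tumours against 2.29 to 3.60 RPKM in 6DT1 cultures and Egr1 at 1.52 to 3.70 RPKM in 6DT1 tumours against 0.418 to 0.746 RPKM in 6DT1 cultures, with differences of -4.73 ± 0.60 (SE, adjusted p = 1.53e-05) and -4.32 ± 0.81 (SE, adjusted p = 0.00119). Gdpd2, a glycerophosphodiester phosphodiesterase, was at 0.271 to 9.00 RPKM in Mvt1 tumours against 11.8 to 15.7 RPKM in Mvt1 cultures and at 2.29 to 8.76 RPKM in 6DT1 tumours against 0.101 to 0.144 RPKM in 6DT1 cultures, and differed by -4.28 ± 0.61 (SE, adjusted p = 6.04e-05). By list, 9 of 16 immediate early genes had a lower difference in Mvt1 than in 6DT1 without the library labelled mouse 5 and none a higher one, against 5.2% of all genes lower. Against Met1 3 were lower and 2 higher, where 13.2% and 19.2% of all genes were. In Met1 itself 11 fell and 1 rose, against 26.8% of all genes lower, and in 6DT1 2 rose and none fell, against 17.4% higher. The 6DT1 tumours carry another series of title numbers than the Mvt1 tumours and than the 6DT1 cultures. In every result on 6DT1, here and above, this numbering cannot be told apart from the line, nor within 6DT1 from tumour against culture.

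Interferon-stimulated genes rose in 6DT1 too, 20 of 22 higher with a median of 1.87, against 17.4% of all genes. Of the 22, 1 had a higher difference in Mvt1 than in 6DT1, against 6.97% of all genes. In Met1 none was higher and 5 were lower (median -0.39), against 21.7% and 26.8% of all genes, and 18 of 22 had a higher difference in Mvt1, against 19.2%. Myc targets fell in Met1, 20 of 24 lower against 26.8% of all genes, and 17 had a higher difference in Mvt1 and 1 a lower one, against 19.2% and 13.2%. These differences between lines, and those of the macrophage genes, are without the library labelled mouse 5 and keep the Met1 tumour of mouse 1. Of 16 macrophage genes 1 had a higher difference in Mvt1 than in 6DT1, against 6.97% of all genes. Relative to Met1 1 was higher too, where 19.2% of all genes were. Lower in Mvt1 against Met1 were Lpl, at 1.42 to 81.7 RPKM in Met1 tumours against 0.359 to 0.834 RPKM in Met1 cultures, with -4.91 ± 1.02 (SE, adjusted p = 0.000759), Arhgef6, with -4.84 ± 0.52 (SE, adjusted p = 3.25e-07), and Tnfrsf19, a receptor of the TNF family, with -4.32 ± 0.87 (SE, adjusted p = 0.000587). Dapk1, a death-associated kinase, was at 1.15 to 3.60 RPKM in Mvt1 tumours against 11.3 to 13.9 RPKM in Mvt1 cultures and at 4.82 to 8.07 RPKM in Met1 tumours against 0.746 to 0.852 RPKM in Met1 cultures, and differed by -4.12 ± 0.30 (SE, adjusted p = 6.54e-10). Srgn, the granule proteoglycan serglycin, was higher in tumours of both lines, at 115 to 283 RPKM in Mvt1 tumours against 84.1 to 122 RPKM in Mvt1 cultures and at 16.5 to 276 RPKM in Met1 tumours against 0.0212 to 0.677 RPKM in Met1 cultures. Its difference was the smaller in Mvt1, at -4.16 ± 0.71 (SE, adjusted p = 0.000107) relative to Met1.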

How the data were processed

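RNA-seq of 6 orthotopic Mvt1 tumours and 3 samples of cultured Mvt1 cells was taken from the series, with 6DT1 and Met1 tumours and cultures for comparison. The authors' deposited values are RPKM per gene symbol (20188 genes). TopHat, DESeq2 and the mm9 build are named in the submitters' processing notes, with no role or version. Counting rules, strand use and annotation are not given in the sources used here. Samples were grouped by title and source.

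Genes at 1 RPKM or more in at least 3 libraries were tested on log2(RPKM + 1) with limma 3.58.1 in R 4.3.3 (trend and robust moderation, Benjamini-Hochberg adjustment, calls at an adjusted p under 0.05), without a block for the replicate numbers of the titles. Samples with the same number did not deviate together (correlations of -0.21, -0.037 and -0.035). Differences between lines came from 1 fit over 6 groups. No 2 of the 9 libraries were identical. Read totals of 16850995 to 47099290 were recovered from the RPKM steps of the libraries used. The test was tested on simulated data. Alternatives were another pseudocount (0.1), other filters, median-ratio and quantile scaling, all Mvt1 libraries or 6 groups in the fit, the block, and leaving out each library of the lines compared.

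Named genes are the 12 largest higher (tumour mean of at least 5 RPKM), the 12 largest lower (culture mean of at least 5 RPKM) and the 12 largest higher among genes at 5 RPKM or more in every culture and in no host list, all with a difference of at least 1 and groups apart. To these were added up to 4 genes a list by adjusted p, the drivers, Ptprc, and the 5 largest in each direction of each difference between lines. The groups and lists were chosen with earlier results of these data known. Promoters are RefSeq's for GRCm38.p6, matched by symbol, from 250 bases before to 50 after the start.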

Additional observations from a re-analysis of the deposited data

Results flagged for a closer look

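Of 39 named genes examined in the 6 Mvt1 tumours, 11 had 1 tumour far from the others. Chance alone flags about 1 in 20 where genes are independent and their values normal. The flags here repeat the same few libraries, so the count cannot be set against that rate. The tumour of mouse 6 was the lowest for 4 macrophage genes, with 101 RPKM of C1qa, 84.6 of C1qc, 71.8 of C1qb and 89.5 of Ctss, against 206 to 250 RPKM of C1qa in the other 5. The tumour of mouse 2 was the highest for the immediate early genes Fos (111 RPKM) and Egr3 (6.86 RPKM), and for Fndc3c1 (0.266 RPKM). The library labelled mouse 5 stood apart for Papln (1.48 RPKM), Id3 (93.9 RPKM), Fn1 (439 RPKM) and Myc (35.7 RPKM).

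The tumour-culture difference itself differed between lines in the test of that difference. Relative to 6DT1 it was higher in Mvt1 for Axl (5.38), Mthfd2 (4.02), Mmp3 (3.87), Adam8 (3.73) and Acsbg1 (3.67), and lower for Fos (-5.79), Cyr61 (-5.39), Btg2 (-4.73), Egr1 (-4.32) and Gdpd2 (-4.28). Relative to Met1 it was higher in Mvt1 for Axl (7.49), Fn1 (6.57), Gzmg (6.38), Gzmf (6.34) and Gzmd (5.97), and lower for Lpl (-4.91), Arhgef6 (-4.84), Tnfrsf19 (-4.32), Srgn (-4.16) and Dapk1 (-4.12).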

How the results depend on the processing

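Leaving out 1 library at a time gave 2244 to 5355 calls for Mvt1 tumours against cultures, where all libraries gave 3792. The lowest counts were 2244 without culture 3 (which alone among the 9 carries another series of title numbers) and 2333 without culture 2, and the highest was 5355 without the library labelled mouse 5. Without the tumours of mouse 1 and mouse 5 together there were 5326, a choice made after seeing the data. For the difference between Mvt1 and 6DT1 the range was 690 (without Mvt1 culture 2) to 1516 (without the library labelled mouse 5) around 1190, with 760 without Mvt1 culture 3, and 757 and 746 without 6DT1 culture 1 and culture 2. Leaving out each 6DT1 tumour in turn, added after seeing the data, gave 955 to 1296. Against Met1, leaving out the Met1 tumour of mouse 1, also chosen after seeing the data, gave 2786 higher and 1999 lower, and leaving out the library labelled mouse 5 as well gave 3013 and 2199. The other Met1 tumours, left out in turn as a later choice, kept the count close to 3786, at 3671 to 3844. The share of calls that were higher was 54.4% for Mvt1 tumours against cultures and 38% after quantile normalization. Against Met1 it was 59.4%, and 49.4% and 49.2% after median-ratio and quantile scaling. A fit with the replicate block of the title numbers made 3135 calls, and 208 of list genes where the fit without it made 227. Over all settings the list calls ranged from 166 to 270. Of the values of single named genes under the alternatives, 3678 kept their direction and call, 162 lost and 56 gained a call, and 1 reversed. That was Mylpf, a muscle gene at -0.49 (adjusted p = 0.00892 by limma) after quantile normalization, where it was not called on the deposited scale, at 0.19. The cause was not tested.
With 3 cultures the spread of that group rests on few samples. In the 9 Mvt1 libraries 1 read in a gene of 1 kb is worth 0.0355 to 0.0493 RPKM, so values near these rest on few reads. The log2(RPKM + 1) scale understates the change of genes near or below 1 RPKM.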

Other observations

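Lung metastases of the same line, which the comparison above does not use, also lay away from the cultured cells for the genes it turns on. They are given as values only, since lung tissue surrounds the tumour cells. The orthotopic metastasis of mouse 5, kept in the ranges, correlated at 0.975 with 6DT1 orthotopic lung metastases and at 0.971 with its own group. It had 96.7 RPKM of Myc, the lowest of its group. Fos was at 4.95 to 17.7 RPKM (median 6.30) in the 6 metastases from orthotopic tumours, at 3.36 to 10.6 RPKM (median 4.90) in the 6 from tail vein injection and at 8.03 to 12.6 RPKM (median 10.1) in 4 healthy FVB lungs. In each metastasis it was below every Mvt1 culture. Cyr61 was at 10.7 to 43.0 RPKM (median 21.3) in orthotopic metastases, at 6.27 to 42.9 RPKM (median 20.2) in tail vein metastases and at 33.5 to 60.8 RPKM (median 58.5) in healthy lungs. Axl was at 38.0 to 64.5 RPKM (median 52.5), at 17.4 to 46.2 RPKM (median 26.4) and at 12.5 to 14.5 RPKM (median 14.2) in the same order, so every metastasis held more of it than any culture. Ifit3 stood at 6.93 to 29.6 RPKM (median 18.4) in orthotopic metastases, at 3.61 to 32.3 RPKM (median 20.3) in tail vein metastases and at 19.1 to 36.6 RPKM (median 33.4) in healthy lungs. Mthfd2 was at 7.43 to 16.0 RPKM (median 8.98), at 11.1 to 17.6 RPKM (median 11.7) and at 1.63 to 2.12 RPKM (median 1.68) in that order.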
